A study of Homo sapiens with 9 samples.

Results

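The forkhead (FOX) genes encode transcription factors that share a winged-helix DNA-binding domain. They were taken here as every symbol of the count table that starts with FOX, a letter from A to S and a digit. The rule found 51 of 19969 symbols, and 50 of these are forkhead genes. The other, FOXL2NB, is a neighbour of FOXL2 that carries its name. The counts came from 9 ribosomal-RNA-depleted libraries of HEK293T, a human embryonic kidney cell line. In 6 of them the labels name an FHY1-M3 construct with a guide RNA (sgRNA). The guide is ACTB (the beta-actin gene) in 2 libraries, con in 2 and non-target in 2, and the FHY1-M3 part is common to all 6. The other 3 are labelled input, with no construct or guide named. The study is about light-controlled (red and far-red) editing of m6A, the N6-methyladenosine mark on RNA, but the labels give neither the light nor the RNA fraction of a library, so a value may not be a transcript level. Columns of the con libraries add ACTB to the name where the titles do not, which leaves the makeup of that guide unclear. Since no label ties replicates to separate cultures, the p-values measure only the spread between libraries, which may be technical.

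Forkhead factors bind DNA mostly as monomers, and some, such as the FOXA group, can open closed chromatin. Several act in many cell types: FOXK1 and FOXK2 recruit chromatin regulators, and FOXM1 drives genes of cell division in dividing cells. The FOXO group is held in the cytoplasm by insulin and AKT signalling. Many others are switched on in one lineage of the embryo or one cell type of the adult and are silent elsewhere.

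The 51 symbols fell into 4 detection classes. No count was found in any library for 5 of them: FOXI2, FOXR2 and the FOXD4-like copies FOXD4L3, FOXD4L4 and FOXD4L5. At least 1 count was found in each of the 9 libraries for 23, in some libraries for 22, and with 1 guide only for FOXI1. Of all symbols 16% were silent and 50.1% were found in every library, against 9.8% and 45.1% of the FOX symbols. Each sgRNA library held 2900021 to 3802681 counts and each input 350413 to 643954, which makes input values the less precise. Of the FOX counts above 0, 80% to 96.3% per library were even numbers, so each fragment seems to enter the table as 2 reads. Intervals from counts leave out the spread between libraries. They also treat the 2 reads as independent, so they are too narrow even for counting error. FOX symbols held 0.173% to 0.218% of the counts of a library. Levels are CPM, the counts of a library scaled by its TMM-adjusted total. They are not corrected for transcript length, so levels are compared between libraries and never between genes. Of 10 genes listed for HEK293T cells (NEFL, NEFM, INA, VIM, KRT8, KRT18, LIN28B, IGF2BP1, IGF2BP3 and PAX2), 9 were found in every library.

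**Figure D1:**
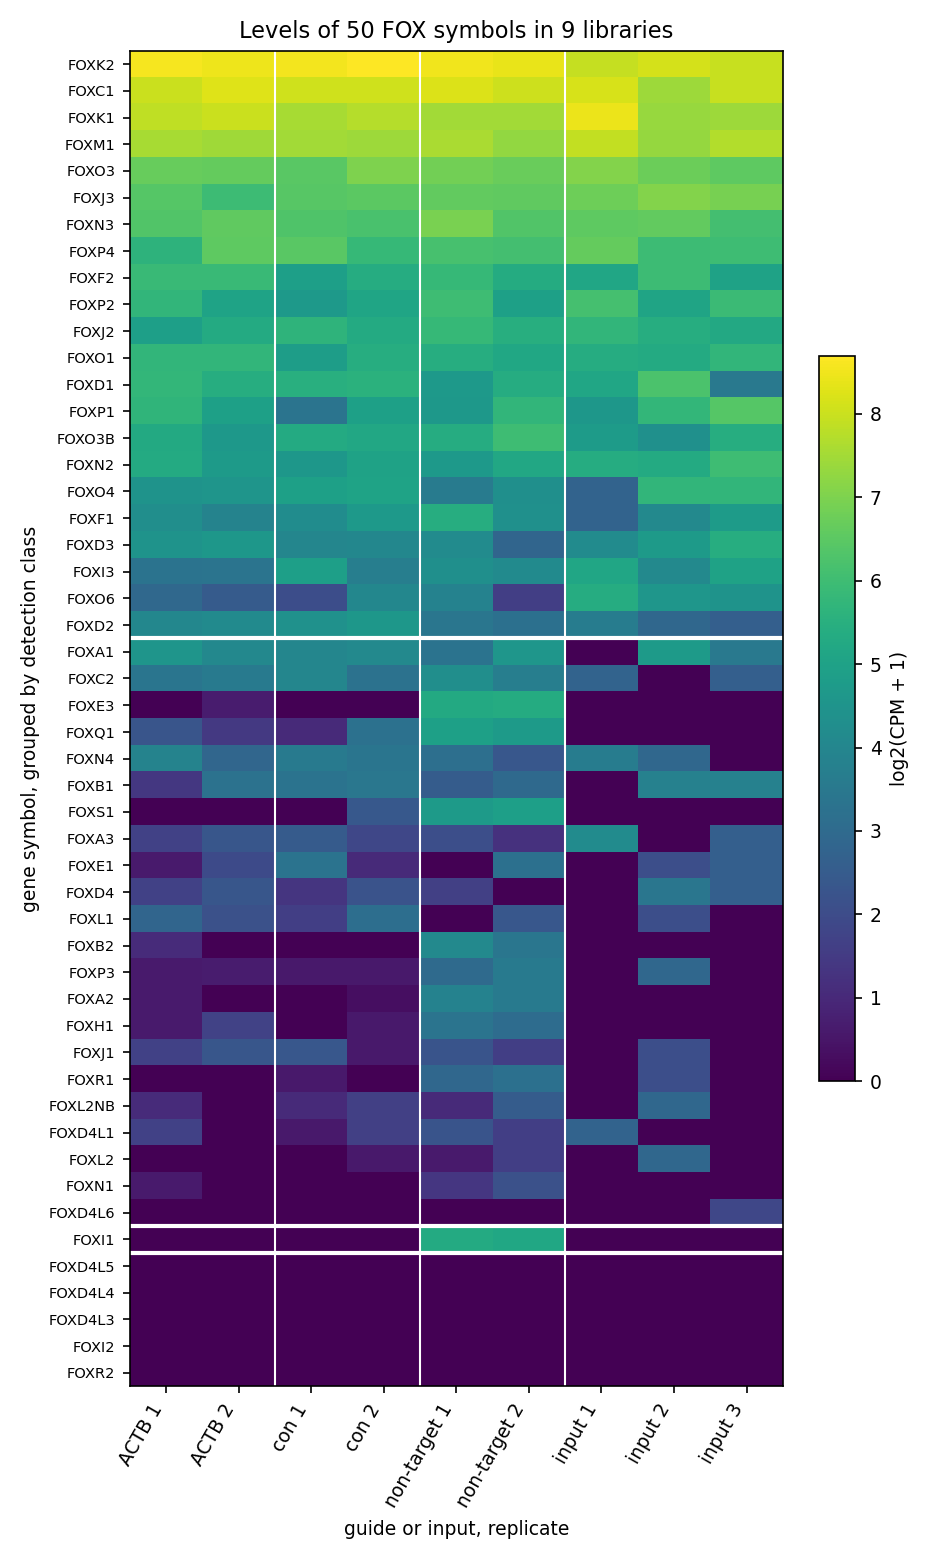
Level of 50 of the 51 FOX symbols (rows, by detection class from every library at the top to silent at the bottom) in each of the 9 libraries (columns, by guide and input), as log2(CPM + 1). White horizontal lines part the 4 classes. In the 2 non-target columns, FOXI1 and several rows of the class found in some libraries are bright where the other 7 columns are dark.

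The non-target libraries held counts of several lineage-restricted FOX genes that were low or at 0 elsewhere. Other such genes, among them FOXA1 and FOXN4, were not raised there. FOXI1, a regulator of ionocytes in the inner ear and of intercalated cells in the kidney (chromosome 5, 170105897 to 170109737, GRCh38.p14), had 0 and 0 counts in ACTB libraries, 0 and 0 in con libraries, 146 and 104 in non-target libraries and 0, 0 and 0 in the inputs. It was the 1 FOX symbol found in both libraries of 1 guide and in no library of the others, a class that holds 0.22% of all symbols for non-target. No FOX symbol was in that class for ACTB (0.235% of all symbols) or con (0.361%). FOXE3, which maintains the lens epithelium (chromosome 1, 47416285 to 47418052), had 0 and 2 counts in ACTB libraries, 0 and 0 in con libraries, 140 and 116 in non-target libraries and 0, 0 and 0 in the inputs. FOXS1, known from perivascular cells and sensory neurons of the mouse (chromosome 20, 31844303 to 31845604), had 0 and 0 counts in ACTB libraries, 0 and 16 in con libraries, 96 and 86 in non-target libraries and 0, 0 and 0 in the inputs. FOXQ1, known from the mouse hair follicle (chromosome 6, 1312098 to 1314758), had 14 and 6 counts in ACTB libraries, 4 and 32 in con libraries, 112 and 76 in non-target libraries and 0, 0 and 0 in the inputs. In all 4 genes the 2 non-target libraries stood above the other 7, and the 2 groups of libraries did not overlap.

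A wider class was set at 20 counts or more in both libraries of 1 guide and at most 4 in each library of the other 2 guides. It held 6 FOX symbols, all in non-target libraries, and 0.155% of all symbols. For ACTB (0.01% of all symbols) and con (0.00501%) it held 0 FOX symbols. Besides FOXI1 and FOXE3 these were FOXB2, FOXA2, FOXR1 and FOXP3. FOXB2 had 4 and 0 counts in ACTB libraries, 0 and 0 in con libraries, 60 and 28 in non-target libraries and 0, 0 and 0 in the inputs. FOXA2, a pioneer factor of endoderm and liver, had 2 and 0 counts in ACTB libraries, 0 and 1 in con libraries, 50 and 32 in non-target libraries and 0, 0 and 0 in the inputs. FOXP3, the defining factor of regulatory T cells, had 2 and 2 counts in ACTB libraries, 2 and 2 in con libraries, 26 and 32 in non-target libraries and 0, 4 and 0 in the inputs. For these 3 the non-target libraries were again the high ones, with input 2 next for FOXP3. FOXR1 had 0 and 0 counts in ACTB libraries, 2 and 0 in con libraries, 24 and 24 in non-target libraries and 0, 2 and 0 in the inputs. FOXH1, a partner of SMAD proteins in Nodal signalling, fell outside both classes with 2 and 8 counts in ACTB libraries, 0 and 2 in con libraries, 34 and 22 in non-target libraries and 0, 0 and 0 in the inputs. FOXN1, the factor of thymic epithelium, had 2 and 0 counts in ACTB libraries, 0 and 0 in con libraries, 6 and 10 in non-target libraries and 0, 0 and 0 in the inputs. FOXL2, the factor of ovarian granulosa cells, had 0 and 0 counts in ACTB libraries, 0 and 2 in con libraries, 2 and 6 in non-target libraries and 0, 4 and 0 in the inputs. FOXN1 and FOXL2 were too low for the tests.

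The bases before the annotated start are shown for FOXI1 and FOXQ1, which passed a guide test, and for FOXR1 and FOXP3. FOXR1 and FOXP3 were in the wider class but passed no guide test. Those of FOXK2, which was found in every library, are shown beside them. The window of FOXB2, which passed the test of any guide difference, holds 16 CG dinucleotides and is not shown. RefSeq windows (GRCh38.p14) were on hand for 40 of the 51 symbols, and each sequence below is the 250 bases before the start, 5′ to 3′ on the gene's strand, with CG dinucleotides in capitals. The windows are chr5:170105647-170105896, plus strand, for FOXI1, chr6:1311848-1312097, plus strand, for FOXQ1, chr11:118971511-118971760, plus strand, for FOXR1, chrX:49264711-49264960, minus strand, for FOXP3, and chr17:82519482-82519731, plus strand, for FOXK2.
FOXI1: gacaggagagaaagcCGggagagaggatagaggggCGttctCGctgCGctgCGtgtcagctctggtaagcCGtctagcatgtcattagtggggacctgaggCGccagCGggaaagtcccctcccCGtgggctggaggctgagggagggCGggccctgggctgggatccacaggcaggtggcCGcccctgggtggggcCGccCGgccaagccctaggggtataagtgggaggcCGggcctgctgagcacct
FOXQ1: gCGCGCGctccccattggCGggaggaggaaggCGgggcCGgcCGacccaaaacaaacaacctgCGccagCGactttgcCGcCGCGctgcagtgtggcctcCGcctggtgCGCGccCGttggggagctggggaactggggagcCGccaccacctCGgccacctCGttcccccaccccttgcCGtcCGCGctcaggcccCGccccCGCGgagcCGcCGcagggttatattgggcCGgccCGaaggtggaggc
FOXR1: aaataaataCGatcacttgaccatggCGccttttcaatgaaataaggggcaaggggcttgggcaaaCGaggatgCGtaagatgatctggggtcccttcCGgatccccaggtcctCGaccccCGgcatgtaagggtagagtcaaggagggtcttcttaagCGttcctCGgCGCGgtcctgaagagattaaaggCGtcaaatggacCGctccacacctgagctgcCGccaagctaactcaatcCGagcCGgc
FOXP3: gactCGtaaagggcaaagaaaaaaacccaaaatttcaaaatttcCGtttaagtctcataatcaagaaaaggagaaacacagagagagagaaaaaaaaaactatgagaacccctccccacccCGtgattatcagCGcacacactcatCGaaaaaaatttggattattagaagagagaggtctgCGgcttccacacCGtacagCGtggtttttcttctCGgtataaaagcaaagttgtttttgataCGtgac
FOXK2: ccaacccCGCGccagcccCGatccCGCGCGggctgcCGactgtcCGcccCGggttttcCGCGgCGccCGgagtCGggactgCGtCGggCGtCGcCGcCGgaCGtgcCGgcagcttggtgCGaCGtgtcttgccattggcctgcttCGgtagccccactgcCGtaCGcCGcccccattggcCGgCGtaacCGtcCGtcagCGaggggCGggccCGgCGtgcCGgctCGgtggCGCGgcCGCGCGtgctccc

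These windows hold 14 CG dinucleotides for FOXI1, 29 for FOXQ1, 16 for FOXR1, 10 for FOXP3 and 43 for FOXK2. The median was 20.5 over the 40 FOX windows and 18 over all 14908 windows of symbols in the count table. The GC content was 68.4%, 74.0%, 55.2%, 39.6% and 77.2% for the same 5 genes, and 67.0% at the median of the FOX windows. The non-target genes shown therefore span CG-poor and CG-rich windows, and FOXK2 holds the most CG of the 5. A forkhead core motif (TGTTTAC on either strand) was in 0 of the 40 FOX windows and in 2.27% of all 14908. The motif TATAAA, on either strand, was in 6 FOX windows (15%): FOXP3, FOXA3, FOXR2, FOXD4L3, FOXD4L4 and FOXD4L5. It was in 8.96% of all windows, and neither motif contains the other. FOXD4L3, FOXD4L4 and FOXD4L5 are copies of one gene, so their windows may not be separate cases.

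**Figure D2:**
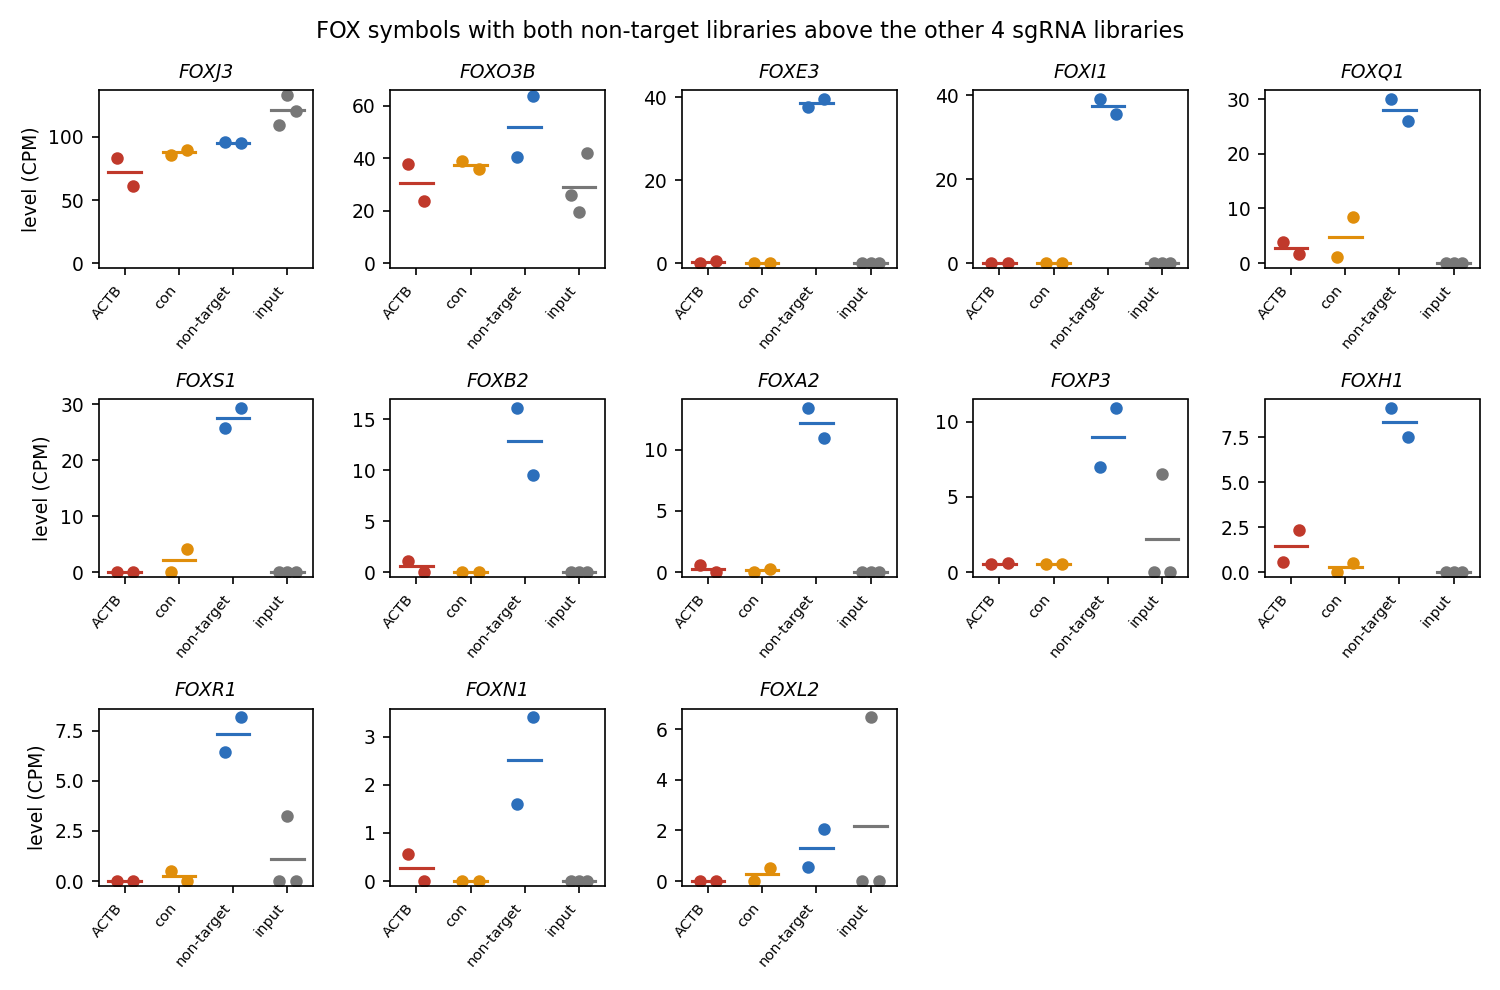
Level in CPM of the 13 FOX symbols whose 2 non-target libraries both stood above the other 4 sgRNA libraries, 1 panel each with its own scale. Points are libraries and bars are group means. In FOXE3, FOXI1, FOXQ1, FOXS1, FOXB2, FOXA2, FOXH1 and FOXN1 all 3 inputs are at 0, while in FOXJ3 and FOXO3B every group is well above 0.

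Both non-target libraries stood above the 4 other sgRNA libraries in 13 of the 51 FOX symbols (25.5%) and in 6% of all symbols. They stood below them in 4 (7.84%; 5.59% of all symbols): FOXD1, FOXD2, FOXK1 and FOXO4. For the ACTB sgRNA the counts were 4 above (FOXD3, FOXF2, FOXK1 and FOXO1, 5.39% of all symbols) and 3 below (FOXI3, FOXJ2 and FOXJ3, 5.08%). For the con sgRNA they were 3 above (FOXB1, FOXD2 and FOXO4, 4.49%) and 3 below (FOXH1, FOXN3 and FOXP3, 3.69%). Of the 13 symbols, FOXJ3 and FOXO3B were found in every library. The 23 symbols found in every library summed to 1885 and 1880.1 CPM in ACTB libraries, 1744 and 1874 in con libraries, 1931 and 1727 in non-target libraries and 2084, 1721 and 1893 in the inputs. Both ACTB sums were above both con sums, and the non-target libraries and the inputs reached above and below both.

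More FOX symbols were detected in the non-target libraries than elsewhere. At full depth 40 and 36 were found in ACTB libraries, 37 and 40 in con libraries, 43 and 44 in non-target libraries and 27, 34 and 30 in the inputs. With each sgRNA library thinned at random to about 462026 counts, the mean input total, the numbers were 32 and 32, 31 and 31, and 39 and 42 for the ACTB, con and non-target sgRNA. The 2 non-target libraries stood above every other library at both depths. Over all symbols, thinning left 12806 and 12712 detected in ACTB libraries, 12825 and 12953 in con libraries and 12622 and 12791 in non-target libraries. Both con libraries were thus above the ACTB and non-target libraries, which overlapped each other.

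**Figure D3:**
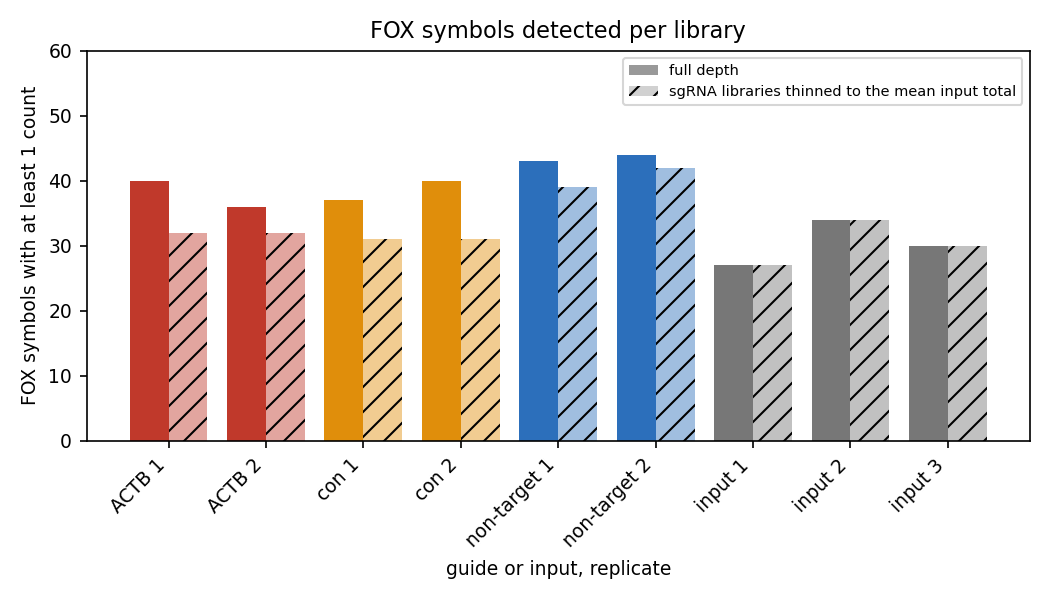
Number of the 51 FOX symbols with at least 1 count in each library, at full depth (solid bars) and with the sgRNA libraries thinned to the mean input total (hatched bars, with the inputs unchanged). The 2 non-target libraries are highest, at 43 and 44 at full depth and at 39 and 42 after thinning.

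With the ACTB sgRNA, FOXE3, FOXI1, FOXS1 and FOXQ1 were lower than in non-target libraries, and no FOX gene was higher. These were 4 of the 41 FOX symbols tested, where 0.25% of all 12808 genes passed (0.195% lower, 0.0547% higher). FOXI1, FOXE3 and FOXS1 passed the expression filter only through the non-target libraries. The FOX share is thus not independent of their high non-target counts. The unadjusted p was under 0.05 for 10 of the 41 and for 7.82% of all genes. Among these 10, FOXB2, FOXA2, FOXR1 and FOXP3 also passed the filter only through the non-target libraries. The unadjusted share is thus not independent of high non-target counts either. FOXI1 was at least 88.7-fold lower (edgeR quasi-likelihood Benjamini-Hochberg adjusted p = 1.40e-06) and FOXS1 at least 64.6-fold lower (edgeR adjusted p = 0.000178), both against 3 counts over the ACTB sgRNA group. For FOXE3 the non-target level was higher by a ratio of 136 (95% counting interval 37.3 to 1131), with 2 counts against 256 (log2 -6.92, SE 0.94, edgeR adjusted p = 7.34e-06). Both ACTB counts came from replicate 2. The log2 difference was -5.97 without ACTB replicate 1, and without ACTB replicate 2 the ACTB level was 0 and FOXE3 still passed. FOXQ1 averaged 2.80 ± 1.51 CPM in ACTB libraries and 28.0 ± 2.91 CPM in non-target libraries (SD, n = 2 each, log2 -3.30, SE 0.78, edgeR adjusted p = 0.0479). FOXQ1 lost its call without ACTB sgRNA replicate 1 (edgeR adjusted p = 0.164) or 2 (0.603), without the first non-target library (0.324) or the second (0.151), with library-size scaling (0.0507) and with all 9 libraries in the fit (1). In DESeq2 FOXS1 did not pass (adjusted p = 0.247), while FOXA2 did.

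Others were low in ACTB libraries but did not pass. FOXA2 held 2 counts in ACTB libraries and 82 in non-target libraries, a ratio of 43.6 (95% counting interval 11.7 to 366) in the non-target direction (edgeR adjusted p = 0.335). FOXR1 held 0 and 48 counts (edgeR adjusted p = 0.339). FOXB2 held 4 and 88 counts (edgeR adjusted p = 0.37), and FOXP3 held 4 and 58 (edgeR adjusted p = 0.556). In the other direction, FOXK1 averaged 245 ± 15.5 CPM in ACTB libraries and 178 ± 1.12 CPM in non-target libraries (SD, n = 2 each), a log2 difference of 0.47 (SE 0.15) whose libraries did not overlap but which did not pass (edgeR adjusted p = 0.339). Over the 41 tested FOX symbols the median log2 difference was -0.11, with 20 above 0 and 21 below, and over all tested genes it was near 0 (-0.00046).

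With the con sgRNA, FOXE3 and FOXI1 were lower than in non-target libraries. They were 2 of 41 FOX symbols tested, where 0.172% of all genes passed (0.164% lower, 0.00781% higher). Both passed the expression filter only through the non-target libraries, so this share too is not independent of their high counts there. The unadjusted p was under 0.05 for 12 of the 41 and for 5.25% of all genes. Among these 12, FOXS1, FOXB2, FOXA2, FOXR1, FOXP3 and FOXH1 also passed the filter only through the non-target libraries. The unadjusted share is therefore not independent of high non-target counts either. FOXE3 was at least 98.3-fold lower (edgeR adjusted p = 5.48e-07) and FOXI1 at least 96.0-fold lower (edgeR adjusted p = 5.65e-07), against 3 counts over the con sgRNA group. FOXS1 averaged 2.10 ± 2.97 CPM in con libraries and 27.6 ± 2.54 CPM in non-target libraries (SD, n = 2 each, log2 -3.70, SE 0.93) and did not pass (edgeR adjusted p = 0.112). All 16 con counts of FOXS1 came from con replicate 2. FOXB2 held 0 and 88 counts in con and non-target libraries (edgeR adjusted p = 0.0953), and FOXA2 held 1 and 82 (edgeR adjusted p = 0.337). FOXB2 did pass in DESeq2 and in edgeR without the expression filter. FOXS1 did pass in edgeR without that filter and with counts halved to read pairs. FOXQ1 averaged 4.72 ± 5.20 CPM in con libraries and 28.0 ± 2.91 CPM in non-target libraries (edgeR adjusted p = 0.383). The count of calls was 4 without ACTB sgRNA replicate 1, with FOXB2 and FOXS1 added, and 4 without con sgRNA replicate 2, with FOXQ1 and FOXS1 added. This comparison and the preceding one share the 2 non-target libraries, so their values are not independent.

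Between the ACTB and con sgRNA, 0 of 41 FOX symbols passed the edgeR test and 0 passed DESeq2, where edgeR called 0.0312% of all genes (0.0156% higher and 0.0156% lower). At an unadjusted p under 0.05 there were 4 in edgeR, with 3.86% of all genes: FOXS1, FOXP1, FOXF2 and FOXI3. FOXP1 averaged 40.6 ± 14.9 CPM in ACTB libraries and 19.5 ± 14.7 CPM in con libraries (SD, n = 2 each, log2 1.06, SE 0.45, edgeR adjusted p = 1). FOXF2 stood at 58.6 and 59.0 CPM in ACTB libraries and at 28.9 and 40.4 CPM in con libraries (log2 0.77, SE 0.33). FOXI3 stood at 8.84 and 9.25 CPM in ACTB libraries and at 29.1 and 12.1 CPM in con libraries (log2 -1.18, SE 0.57).

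A single test of any difference among the 3 guides called 5 of 41 FOX symbols, where 0.289% of all genes passed. The unadjusted p was under 0.05 for 10 of the 41 and for 5.96% of all genes. The 5 were FOXI1 (edgeR adjusted p = 9.21e-10), FOXE3 (2.14e-09), FOXS1 (4.95e-05), FOXQ1 (0.0244) and FOXB2 (0.0388). Of these, all but FOXQ1 passed the expression filter only through the non-target libraries. So did FOXA2, FOXR1, FOXP3 and FOXH1, which were at an unadjusted p under 0.05 without a call. Neither share is thus independent of high non-target counts. FOXI1 and FOXE3 kept their calls under all 14 alternatives. FOXB2 and FOXQ1 lost theirs without ACTB sgRNA replicate 2 (0.0678 and 0.146), without the first non-target library (0.666 and 0.551) or the second (0.193 and 0.193) and with all 9 libraries in the fit (0.556 and 0.932), leaving 3 calls each time. FOXB2 lost its call also without con sgRNA replicate 1 (0.179) or 2 (0.189), and FOXS1 lost its own in DESeq2 (0.596). Of the 23 symbols found in every library edgeR called 0 here, with 1 at an unadjusted p under 0.05, and so did DESeq2.

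The 0 counts of the inputs were set against what their depth allows. At the non-target level 51.7 counts of FOXE3, 50.5 of FOXI1, 38.0 of FOXQ1 and 36.8 of FOXS1 would be expected over the 3 inputs, where 0 were found. Their non-target levels were at least 17.2-fold, 16.8-fold, 12.7-fold and 12.3-fold higher than the inputs, against 3 counts over the inputs. FOXB2, FOXA2 and FOXH1 would have given 17.8, 16.6 and 11.3 counts and were also at 0. For FOXN1 only 3.23 counts would have been seen, so its level in the inputs was not resolved at this depth.

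Markers of other cell types were listed beside these values, with no test, and 1 of them, HBG1, was found in the non-target libraries alone. Of 5 blood markers, the fetal globin gene HBG1 had 72 and 78 counts in the non-target libraries and 0 in the other 7, HBB had 2 counts in input 2 alone, and PTPRC, CD3E and LYZ were at 0 throughout. The blood list summed to 0 CPM in ACTB and con libraries, 19.3 to 26.7 in non-target libraries and 0 to 3.25 in the inputs. The 5 fibroblast markers summed to 21.4 to 28.2 CPM in ACTB libraries, 23.4 to 39.0 in con libraries, 43.1 to 48.9 in non-target libraries and 15.7 to 69.4 in the inputs, with COL1A2 at 0 throughout. COL1A1 had 90 and 58 counts in ACTB libraries, 102 and 75 in con libraries, 182 and 124 in non-target libraries and 22, 8 and 4 in the inputs. LUM ran the other way, with 12 and 16, 18 and 12, 0 and 2, and 2, 2 and 2 counts in the same order. Hepatocyte markers summed to at most 1.66, 2.62, 6.15 and 15.7 CPM in ACTB, con and non-target libraries and in the inputs, with TTR at 0. Endothelial markers summed to at most 0.289, 3.12, 2.05 and 17.3 CPM in the same order, with CDH5 at 0. Thyroid and lung markers summed to 8.10 to 21.0, 12.6 to 20.3, 9.13 to 23.2 and 17.3 to 28.8 CPM. The part of such cells or of their RNA in the FOX values was not tested, and fewer cells of a type cannot be told apart from less RNA per cell.

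Reads of overlapping genes could enter the counts, since the strand setting of the counting is not given in the sources used here. FOXI1, FOXQ1, FOXB2, FOXA2 and FOXR1 overlap no other gene of the RefSeq annotation. FOXS1 lies over part of DUSP15, which had 2 and 0 counts in ACTB libraries, 0 and 14 in con libraries, 0 and 4 in non-target libraries and 0 in the inputs. The con library with FOXS1 counts was thus also the one with the most DUSP15 counts, while the non-target libraries were not. FOXP3 overlaps CCDC22, which had 162 and 112 counts in ACTB libraries, 178 and 152 in con libraries and 128 and 104 in non-target libraries. FOXH1 overlaps KIFC2, with 22 and 22, 54 and 58, and 34 and 44 counts for the same guides. Both partners had their highest count in a con library. Whether reads of a partner entered the counts of FOXS1, FOXP3 or FOXH1 was not tested. FOXE3 overlaps LINC01389, which was not analysed here.

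The nearest FOX neighbours of FOXE3 and FOXQ1 were not highest in the non-target libraries. On chromosome 1, FOXE3 and FOXD2 lie 19992 bases apart. While FOXE3 was high in non-target libraries, FOXD2, known from kidney mesenchyme of the mouse, had 15.5 and 16.8 CPM in ACTB libraries, 20.3 and 23.1 in con libraries, 9.67 and 8.20 in non-target libraries and 11.6, 6.50 and 5.23 in the inputs. FOXD2 was thus lower in non-target libraries than with either other guide, but did not pass for the con sgRNA (log2 1.27, SE 0.56, edgeR adjusted p = 0.876) or the ACTB sgRNA (log2 0.85, SE 0.57, edgeR adjusted p = 0.747). On chromosome 6, FOXQ1 lies 74818 bases from FOXF2, a gene of gut and palate mesenchyme, which had 58.6 and 59.0 CPM in ACTB libraries, 28.9 and 40.4 in con libraries, 55.6 and 39.6 in non-target libraries and 34.7, 61.8 and 31.4 in the inputs. FOXC1, a gene of mesenchyme and of the front of the eye, follows 214312 bases on and had 257 and 305 CPM in ACTB libraries, 267 and 265 in con libraries, 300.1 and 260.4 in non-target libraries and 289, 169 and 251 in the inputs. In both genes an ACTB library was the highest of the sgRNA libraries, and both ACTB libraries of FOXF2 were above the other guides. On chromosome 16, FOXF1, FOXC2 and FOXL1 lie within 51407 and 8821 bases of each other. FOXF1, a Hedgehog-responsive gene of lung and gut mesenchyme, had 18.8 and 13.9 CPM in ACTB libraries, 17.9 and 24.7 in con libraries, 42.2 and 19.8 in non-target libraries and 5.78, 16.3 and 26.1 in the inputs, with non-target replicate 1 alone the highest library. FOXC2, a gene of lymphatic vessels, had 9.39 and 11.0 CPM in ACTB libraries, 15.1 and 8.66 in con libraries, 18.8 and 12.3 in non-target libraries and 5.78, 0 and 5.23 in the inputs. FOXL1, known from gut mesenchyme, had 22 and 12 counts in ACTB libraries, 8 and 30 in con libraries, 0 and 12 in non-target libraries and 0, 2 and 0 in the inputs.

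**Figure D4:**
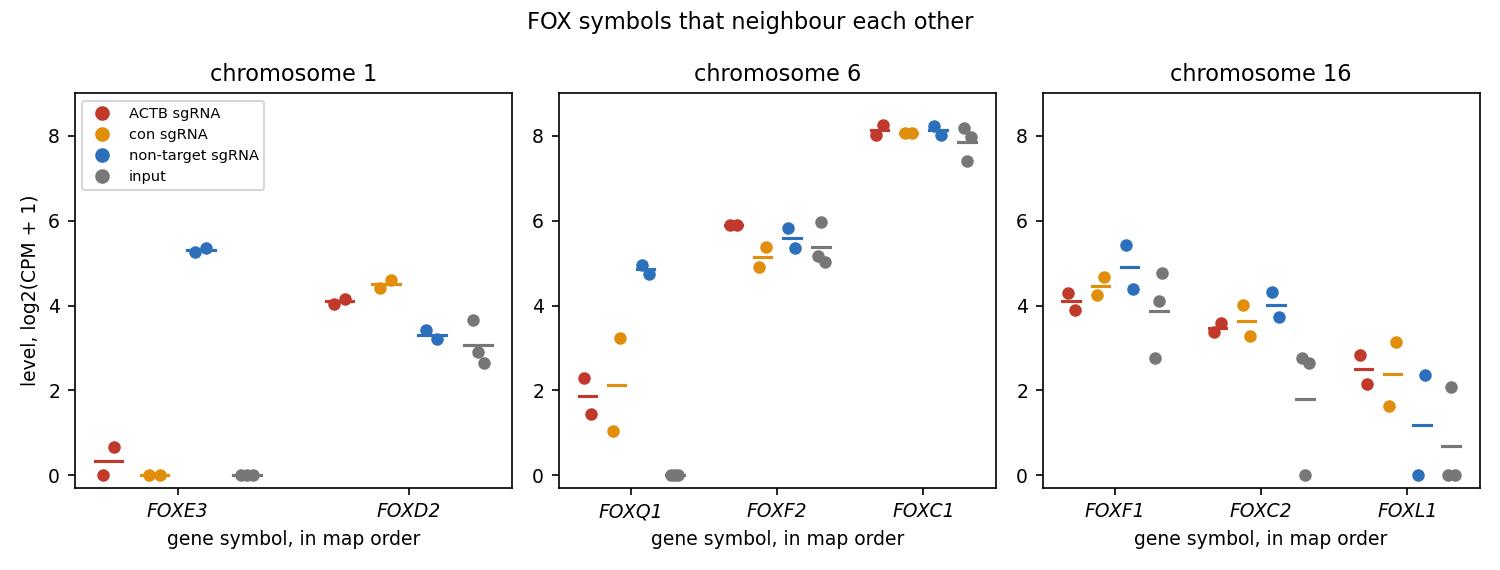
Levels as log2(CPM + 1) of FOX genes that neighbour each other on chromosomes 1, 6 and 16, in map order within each panel and with ACTB, con and non-target sgRNA and input from left to right for each gene. Points are libraries and bars are means of the log values. FOXE3 and FOXQ1 stand out in non-target libraries, while FOXF2 and FOXC1 have a library of another guide above both non-target libraries.

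Of the 23 FOX symbols found in every library, edgeR called 0 in each guide comparison, where it called 0.25%, 0.0312% and 0.172% of all genes for ACTB against non-target, ACTB against con and con against non-target. A count of 0 among 23 is near that background. Their log2 differences ran from -1.004 to 0.90 for ACTB against non-target (2 at an unadjusted p under 0.05, with 7.82% of all genes), from -1.18 to 1.06 for ACTB against con (3, with 3.86%) and from -0.95 to 1.27 for con against non-target (3, with 5.25%). FOXK2, which with FOXK1 recruits the BAP1 deubiquitinase to DNA, had 379 and 354 CPM in ACTB libraries, 370.3 and 414 in con libraries, 363 and 339.6 in non-target libraries and 243, 279.6 and 248 in the inputs. All 6 FHY1-M3 libraries stood above all 3 inputs. FOXK1 had 234 and 256 CPM in ACTB libraries, 187 and 213 in con libraries, 179 and 177 in non-target libraries and 347, 163 and 173 in the inputs, with input 1 the highest library. The 3 guides of FOXK1 were apart, in the order ACTB, con and non-target from high to low, and the inputs overlapped them. FOXM1, the activator of genes of mitosis, had 187 and 173 CPM in ACTB libraries, 178 and 172 in con libraries, 192 and 156 in non-target libraries and 237, 158 and 204 in the inputs, and all of its groups overlapped. FOXM1 shares part of its locus with ITFG2 and RHNO1, so its counts are uncertain. Between the ACTB and non-target sgRNA the log2 difference was 0.06 (SE 0.11) for FOXK2, with a 95% interval of -0.17 to 0.29, and 0.05 (SE 0.16) for FOXM1, with an interval of -0.28 to 0.38. FOXC1 differed by 0.01 (SE 0.13), within an interval of -0.26 to 0.28. The deeper counts behind these genes gave the narrower intervals.

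The FOXO group, which raises stress resistance and metabolic genes when AKT is inactive, was found in every library. FOXO1 had 51.9 and 52.1 CPM in ACTB libraries, 27.8 and 42.0 in con libraries, 41.4 and 34.9 in non-target libraries and 40.5, 39.0 and 52.3 in the inputs. FOXO3 had 102 and 98.9 CPM in ACTB libraries, 87.4 and 127 in con libraries, 113 and 104 in non-target libraries and 133, 107 and 91.5 in the inputs. FOXO4 had 21.0 and 22.0 CPM in ACTB libraries, 29.6 and 32.0 in con libraries, 11.3 and 19.1 in non-target libraries and 5.78, 52.0 and 52.3 in the inputs, with input 1 the lowest library and inputs 2 and 3 the highest. FOXO6, known for its expression in brain, had 6.63 and 4.63 CPM in ACTB libraries, 3.12 and 15.2 in con libraries, 13.4 and 2.05 in non-target libraries and 40.5, 22.8 and 20.9 in the inputs. For FOXO6 all 3 inputs stood above all 6 FHY1-M3 libraries. FOXO3B, a close copy of FOXO3 with which reads may have been shared, had 37.6 and 23.7 CPM in ACTB libraries, 39.0 and 35.9 in con libraries, 40.3 and 63.6 in non-target libraries and 26.0, 19.5 and 41.8 in the inputs. Its 2 non-target libraries were above the other sgRNA libraries, but it did not pass (log2 -0.75, SE 0.37 for ACTB against non-target sgRNA, edgeR adjusted p = 0.626).

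The FOXP, FOXJ and FOXN members found in every library followed. FOXP1, a repressor that pairs with its FOXP relatives, had 51.1 and 30.1 CPM in ACTB libraries, 9.10 and 29.9 in con libraries, 23.6 and 51.9 in non-target libraries and 23.1, 53.6 and 83.6 in the inputs. FOXP2, known for its role in speech, had 51.4 and 31.8 CPM in ACTB libraries, 25.0 and 33.6 in con libraries, 62.3 and 30.1 in non-target libraries and 69.4, 32.5 and 60.1 in the inputs. FOXP4, a further partner of the group, had 48.1 and 91.4 CPM in ACTB libraries, 88.4 and 55.4 in con libraries, 71.5 and 68.0 in non-target libraries and 98.3, 61.8 and 62.7 in the inputs. The guides overlapped in FOXP2 and FOXP4, while both ACTB libraries of FOXP1 were above both con libraries. FOXJ2 had 29.3 and 38.8 CPM in ACTB libraries, 48.9 and 38.8 in con libraries, 55.3 and 43.1 in non-target libraries and 52.0, 42.3 and 36.6 in the inputs. FOXJ3 had 83.4 and 61.3 CPM in ACTB libraries, 85.8 and 89.7 in con libraries, 95.6 and 94.99 in non-target libraries and 109.9, 133 and 120.2 in the inputs, with all inputs above all FHY1-M3 libraries. FOXN2 had 38.7 and 25.5 CPM in ACTB libraries, 23.4 and 31.5 in con libraries, 25.3 and 36.2 in non-target libraries and 40.5, 39.0 and 62.7 in the inputs, also with the inputs highest. FOXN3, a repressor linked to the cell cycle checkpoint, had 80.1 and 93.7 CPM in ACTB libraries, 78.8 and 72.4 in con libraries, 123 and 80.6 in non-target libraries and 92.5, 95.9 and 68.0 in the inputs, with both con libraries below the other sgRNA libraries.

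Developmental members were also among those found in every library. FOXD1, a gene of the kidney stroma, had 52.5 and 41.6 CPM in ACTB libraries, 43.7 and 46.2 in con libraries, 24.2 and 41.0 in non-target libraries and 34.7, 74.8 and 10.5 in the inputs. FOXD3, a gene of neural crest and pluripotent cells, had 21.3 and 23.1 CPM in ACTB libraries, 15.1 and 15.2 in con libraries, 17.5 and 6.15 in non-target libraries and 17.3, 26.0 and 41.8 in the inputs. FOXI3, known from hair and teeth, had 8.84 and 9.25 CPM in ACTB libraries, 29.1 and 12.1 in con libraries, 19.3 and 17.1 in non-target libraries and 34.7, 16.3 and 31.4 in the inputs. In these 3 genes the inputs overlapped the sgRNA libraries, and single inputs rested on as few as 4 counts (FOXD1 in input 3).

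Against the inputs, 4 of 43 FOX symbols tested passed, 2 higher and 2 lower in the FHY1-M3 libraries, and 6 were at an unadjusted p under 0.05 (31.9% of all genes). Over all 13411 genes 20% passed, with 11.4% higher and 8.6% lower, beside 9.3% of the FOX symbols. Several FOX symbols had few input counts (4 for FOXC2, 2 for FOXL1 and 2 for FOXJ1 over all inputs), which limits what could pass. The lower share is therefore not read as a trait of the family. FOXK2 averaged 369.8 ± 25.4 CPM in the FHY1-M3 libraries and 257 ± 19.8 CPM in the inputs (SD, n = 6 and 3), and was higher (log2 0.52, SE 0.13, edgeR adjusted p = 0.00362). FOXK2 passed under all 18 alternatives. FOXO6 was lower (log2 -1.90, SE 0.66, edgeR adjusted p = 0.0368). FOXQ1, at 0 in all inputs and 244 counts over the FHY1-M3 libraries, was at least 5.11-fold higher against 3 counts over the inputs (edgeR adjusted p = 0.0271), and 188 of the 244 counts came from the non-target libraries.

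The calls of FOXO6 and FOXQ1 were near the threshold, and each was lost when any of several libraries was left out. FOXO6 lost its call without input replicate 1 (edgeR adjusted p = 0.156) or 2 (0.0654), ACTB replicate 1 (0.0529) or 2 (0.0727), con replicate 1 (0.0951) and non-target replicate 2 (0.0776). FOXQ1 lost its call without con replicate 2 (0.0851), non-target replicate 1 (0.0689) and input replicate 2 (0.0959) or 3 (0.0632). It lost the call also with counts halved to read pairs (0.0711) and with the sgRNA libraries thinned to the input depth (0.0754).

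The groups did not overlap in a few symbols without a call. FOXJ3 had a log2 difference of -0.53 (SE 0.22) and did not pass (edgeR adjusted p = 0.0853), but it passed as lower in the FHY1-M3 libraries with DESeq2, with median-ratio scaling and with a minimum mean of 10 CPM. FOXN2 differed by -0.65 (SE 0.37) (edgeR adjusted p = 0.235). FOXC2 differed by 1.94 (SE 0.92) in the other direction (edgeR adjusted p = 0.137), with 4 counts over the inputs. For FOXE3, FOXI1, FOXB2 and FOXS1 the fitted difference carries no information, because the inputs and a guide group were both at 0. The median log2 difference was -0.05 over the 43 FOX symbols and 0.04 over all genes tested.

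**Figure D5:**
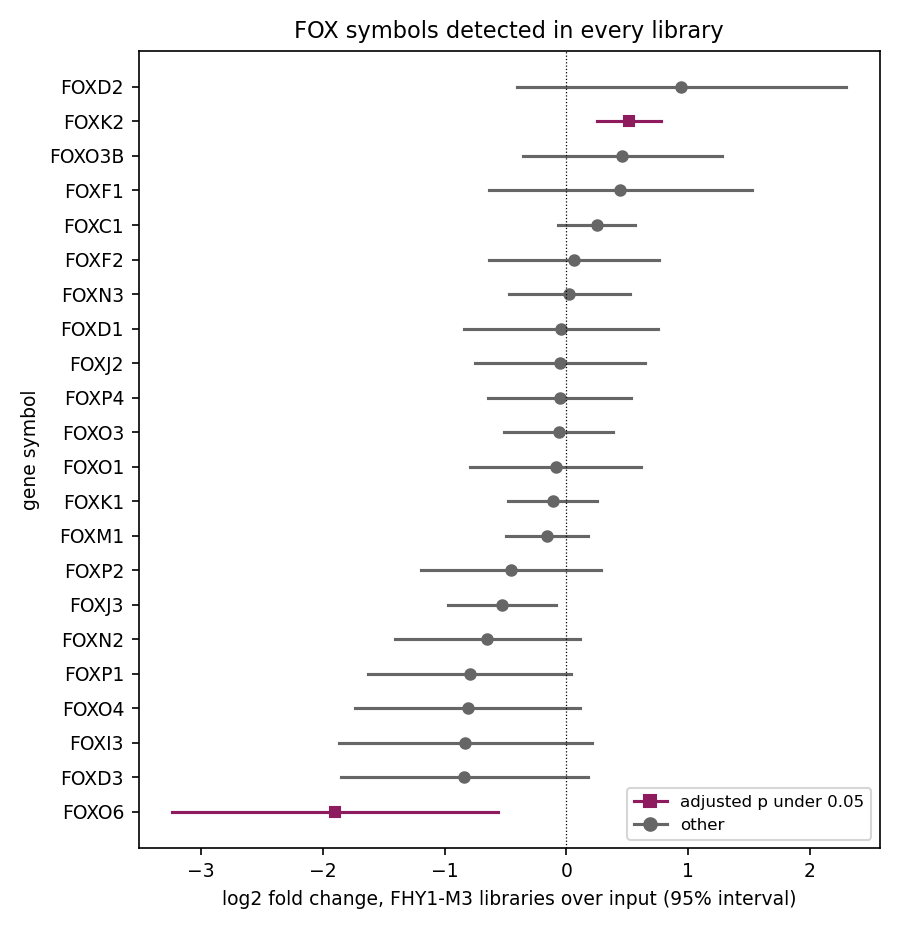
Log2 fold change of the FHY1-M3 libraries over the inputs, with its 95% interval, for 22 of the 23 FOX symbols found in every library, ordered by size. FOXK2 lies above 0, FOXO6 lies below it (both as squares), and the interval of FOXJ3 stays below 0 although its adjusted p missed the threshold.

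The remaining symbols of the class found in some libraries were low. FOXA1, a pioneer factor of breast and prostate epithelium, had 80 and 54 counts in ACTB libraries, 58 and 62 in con libraries, 33 and 66 in non-target libraries and 0, 16 and 4 in the inputs. FOXN4, a gene of retinal progenitors, had 50 and 22 counts in ACTB libraries, 42 and 36 in con libraries, 30 and 12 in non-target libraries and 4, 4 and 0 in the inputs. FOXB1 had 6 and 30 counts in ACTB libraries, 34 and 38 in con libraries, 18 and 20 in non-target libraries and 0, 8 and 5 in the inputs. Each of these 3 was at 0 in 1 input. On the CPM scale the guides overlapped in FOXA1. Both con libraries were above both non-target libraries in FOXN4, and above all other sgRNA libraries in FOXB1. FOXE1, a gene of the thyroid, had 2 and 10 counts in ACTB libraries, 34 and 4 in con libraries, 0 and 24 in non-target libraries and 0, 2 and 2 in the inputs, with the replicates of the con and non-target sgRNA far apart. FOXA3, a gene of liver, had 8 and 14 counts in ACTB libraries, 18 and 10 in con libraries, 12 and 4 in non-target libraries and 6, 0 and 2 in the inputs. FOXJ1, which switches on motile cilia, had 8 and 14 counts in ACTB libraries, 16 and 2 in con libraries, 14 and 6 in non-target libraries and 0, 2 and 0 in the inputs. Neither separated any guide from the others. FOXD4 had 8 and 14 counts in ACTB libraries, 6 and 14 in con libraries, 8 and 0 in non-target libraries and 0, 6 and 2 in the inputs. Its copy FOXD4L1 had 8 and 0 counts in ACTB libraries, 2 and 8 in con libraries, 14 and 6 in non-target libraries and 2, 0 and 0 in the inputs. A single count in input 3 was all that FOXD4L6 had. Reads of the FOXD4 copies may have been lost or shared between them, since they are near-identical, so the silent state of FOXD4L3, FOXD4L4 and FOXD4L5 is uncertain. FOXL2NB had 4 and 0 counts in ACTB libraries, 4 and 8 in con libraries, 4 and 14 in non-target libraries and 0, 4 and 0 in the inputs.

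Partners and target genes of the broadly acting members were set beside them. None of the 30 FOXM1 cell cycle targets, 31 FOXO regulators, 34 FOXO targets and 18 FOXK and BAP1 partners tested passed edgeR in any of the 3 guide comparisons. Of all genes 0.0312% to 0.25% passed in these comparisons, so 0 in lists of this size does not set them apart. The unadjusted p was under 0.05 for at most 4, 3, 5 and 2 of them in a comparison, and for 3.86% to 7.82% of all genes. Against the inputs, where 20% of all genes passed (11.4% higher, 8.6% lower), 4 of the 30 FOXM1 targets were higher and 5 lower, with a median log2 of -0.12 beside 0.04 over all genes. MYBL2, a partner of FOXM1 at mitotic promoters, stood higher (549 ± 34.8 CPM in the FHY1-M3 libraries and 341 ± 43.0 CPM in the inputs, log2 0.68, SE 0.12, edgeR adjusted p = 3.97e-05). TTK, a kinase of the spindle checkpoint, was lower (22.7 ± 6.10 CPM in the FHY1-M3 libraries and 75.3 ± 14.1 CPM in the inputs, log2 -1.74, SE 0.34, edgeR adjusted p = 0.000298). FOXM1 itself differed by -0.16 (SE 0.17), with an interval of -0.50 to 0.18 (edgeR adjusted p = 0.553).

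Beside the same background of 20% of all genes (11.4% higher, 8.6% lower), 5 of the 31 FOXO regulators were higher and 5 lower, with a median of 0.01, and 4 of the 34 FOXO targets were higher and 7 lower, with a median of 0.06. The 14-3-3 protein gene YWHAG, whose product holds FOXO factors in the cytoplasm, was higher (421 ± 28.7 CPM in the FHY1-M3 libraries and 223 ± 30.9 CPM in the inputs, log2 0.90, SE 0.13, edgeR adjusted p = 2.88e-06). The nuclear export receptor gene XPO1 was lower (213 ± 27.3 CPM in the FHY1-M3 libraries and 409 ± 89.0 CPM in the inputs, log2 -0.95, SE 0.14, edgeR adjusted p = 5.09e-06). SESN2, a stress-induced sestrin, was higher (433 ± 46.1 CPM in the FHY1-M3 libraries and 138 ± 20.9 CPM in the inputs, log2 1.62, SE 0.15, edgeR adjusted p = 5.58e-11). CCND2, a G1 cyclin repressed by FOXO factors, was lower (192 ± 14.1 CPM in the FHY1-M3 libraries and 316 ± 27.8 CPM in the inputs, log2 -0.73, SE 0.14, edgeR adjusted p = 0.000221). Among FOXK and BAP1 partners, a list that holds FOXK1 and FOXK2 themselves, 3 of 18 were higher and 4 lower, against the same background, with a median of -0.03. BAP1 was higher (162 ± 23.5 CPM in the FHY1-M3 libraries and 106 ± 27.4 CPM in the inputs, log2 0.64, SE 0.21, edgeR adjusted p = 0.0268). OGT, the O-GlcNAc transferase of the BAP1 complex, was lower (289.9 ± 45.9 CPM in the FHY1-M3 libraries and 662 ± 38.1 CPM in the inputs, log2 -1.21, SE 0.11, edgeR adjusted p = 1.66e-10). Each list thus held calls in both directions, and the SD and n (6 and 3) of these values are over libraries.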

How the data were processed

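Ribosomal-RNA-depleted libraries of HEK293T cells were made with a directional kit after TRIzol extraction, per the labels' protocols. The table deposited by the authors holds whole, unnormalized read counts per gene symbol, and all 9 columns were used. Tools named in the submitters' processing notes are STAR 2.7.10b, cutadapt 4.3 and deepTools, with hg38 as the build. Which program counted reads, with which strand setting and gene models, is not given in the sources used here.

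Groups were compared over all genes by the quasi-likelihood F test of edgeR 4.0.16 (R 4.3.3), two-sided, with TMM scaling, on genes that passed edgeR's expression filter. Adjusted p-values are Benjamini-Hochberg values over all genes tested, with a threshold of 0.05, and come from edgeR except where DESeq2 is named. Guides were compared in 1 fit of the 6 sgRNA libraries (12808 genes, 41 FOX symbols). The mean of the 3 guide groups was set against input in 1 fit of all 9 (13411 genes, 43 FOX symbols). Each SE is the log2 fold change divided by the square root of F. A group at 0 was given 3 counts in all, which makes the fold a lower bound, and a group with 1 to 3 counts has a ratio with an exact 95% counting interval. With reads counted in pairs, 3 counts are fewer than 3 fragments, so the lower bounds are higher than a floor of 3 fragments would give. The counting intervals are too narrow for the same reason. Values per library were given for members called, in a one-guide class, or found in every library at a mean of 10 CPM or more, and up to 4 genes per direction of a companion list were eligible for naming. Members and lists were chosen with earlier results of these data known. The fits were tested on simulated counts with a fixed spread. That setting does not cover genes such as FOXI1 that are at 0 in a whole group. Chi-square tests on halved counts separated all replicates beyond sampling noise (1.81 to 5.12 per degree of freedom), and each library counts once. Alternatives covered scaling, filters, DESeq2 1.42.0, halved counts, thinned libraries, which libraries enter the fit, a block for replicate number and each library left out in turn. Gene coordinates and sequences are from RefSeq (GRCh38.p14), and all 51 symbols matched. Single m6A sites were not analysed here. The counts cover all 51 symbols and all markers, of which 1 FOX symbol and 1 marker are not reported here one by one.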

Additional observations from a re-analysis of the deposited data

Results flagged for a closer look

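FOXJ3 was flagged because ACTB sgRNA replicate 2 stood apart from the other 5 FHY1-M3 libraries. It was at 61.3 CPM (212 counts), the next lowest library was at 83.4 CPM and the highest at 95.6 CPM, and the gap took a share of 0.645 of the whole range, above Dixon's critical value of 0.625 for 6 values. Chance flags about 1 in 20 groups, and 43 FOX symbols were examined in this way.

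The level was not the same for the 3 guides in 5 symbols, by the edgeR test of any difference among the guides. That is the guide test already given, and its fit holds no input library. With all 9 libraries in the fit, FOXQ1 (edgeR adjusted p = 0.932) and FOXB2 (0.556) did not pass. In the fit without the inputs the edgeR adjusted p was 9.21e-10 for FOXI1, 2.14e-09 for FOXE3, 4.95e-05 for FOXS1, 0.0244 for FOXQ1 and 0.0388 for FOXB2. In each of the 5, both non-target libraries were above the other 7 libraries, and all 3 inputs were at 0.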

How the results depend on the processing

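Every named call kept its direction under all alternatives. Over all single-gene values recomputed, 184 kept their side of the threshold and 38 missed it. FOXE3 and FOXI1 against the non-target sgRNA and FOXK2 against input missed it under none. For ACTB against non-target sgRNA the count of calls was 3 or 4 under all alternatives, and for ACTB against con sgRNA it was 0. For con against non-target sgRNA the count of 2 became 4 without the low-count filter and ran from 2 to 4 when a library was left out (4 without ACTB replicate 1 or con replicate 2). For any guide difference the count of 5 became 3 under the 10 CPM minimum and 3 with all 9 libraries in the fit, and ran from 3 to 5 with a library left out (3 without ACTB replicate 2 or either non-target library). FOXB2 and FOXS1 could not be fitted at the 10 CPM minimum, since it removes them, nor could FOXQ1 against input. Against input the count of 4 ran from 2 to 4 with a library left out (2 without con replicate 1, non-target replicate 2, or input replicate 2 or 3). With a replicate block it was 2, with FOXK2 and FOXO6 left, and the block also ended the calls of FOXQ1 for ACTB against non-target sgRNA (edgeR adjusted p = 0.0518) and of FOXB2 for any guide difference (0.0596). The block also added a call of FOXS1 for con against non-target sgRNA. Replicate numbers did not pair the libraries: rep1 minus rep2 correlated at -0.012 to 0.0095 between groups. The FOX symbols found with 1 guide only were 6 with thinned sgRNA libraries and 1 to 3 with a library left out. FOXE3 joined without ACTB replicate 2, and FOXB2 and FOXN1 without ACTB replicate 1. FOXR1 joined without con replicate 1, and FOXS1 and FOXL2 without con replicate 2. For each of these symbols, the library left out held its only counts with the ACTB or con sgRNA. The silent class held 5 or 6 symbols and the class found in every library 22 to 25 under all alternatives. The causes of shifts between alternatives were not tested. The smaller totals of the inputs limit what could be called against them.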
